A study of Mus musculus with 30 samples.

Results

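The epidermal differentiation complex is a run of neighbouring genes on mouse chromosome 3 that encode proteins of the skin surface, and the S100a genes lie beside and within it. Its members were taken from a table of RNA-seq read counts of mouse thyroid by their symbols: every Sprr, Lce or S100a gene whose prefix is followed by a digit, with Ivl, Lor, Flg, Rptn, Hrnr and Crnn. That rule found 53 of the 33924 genes in the table, namely 16 Sprr genes, 18 Lce genes, 13 S100a genes and the 6 genes given by name. The labels hold 30 samples in 10 groups, and 28 libraries were analysed here. Mice with Braf V600E, an activating mutation of the kinase Braf that drives MAPK signalling, also lost the SWI/SNF chromatin remodelling subunit Smarcb1, Arid2 or Arid1a, or carried the mutation alone. Each of these 4 genotypes was given either CKI, the MEK inhibitor CH5126766, or vehicle for 8 days. An Arid1a knockout without the Braf mutation and wild-type mice were left untreated. Every group had 3 libraries, except that both Braf Arid2 knockout groups had 2.

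The untreated groups received no vehicle, so the Braf mutation and the dosing cannot be told apart where Braf libraries are set against them. The labels carry both a sort of YFP+ cells from dissociated thyroids and a freezing of whole thyroids for some genotypes, and both texts stand on every sample. A difference in preparation between genotypes therefore cannot be told apart from genotype. The promoter that drives the deletions, the dose and the age of the animals are not given in the sources used here. Tg and Pax8, which help define thyroid follicular cells, were detected in all 28 libraries, and the 9 thyroid markers had summed levels of 639 to 1349.5 CPM in Braf vehicle and 63825 to 162340.0 CPM in wild type. CPM, the unit of all levels given here, are counts per library size after TMM correction of that size.

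In stratified epithelium the outer cells replace their membrane with a cornified envelope. Involucrin (Ivl) is laid down first, small proline-rich proteins (Sprr) act as cross-bridges, loricrin (Lor) forms the bulk, late cornified envelope proteins (Lce) are added near the end, and transglutaminases join them. S100 proteins are small calcium-binding proteins with many partners: S100a8 and S100a9 form calprotectin, a neutrophil and stressed-epithelium protein, S100a10 and S100a11 bind annexins, and S100a4 and S100a6 are found in fibroblasts, leukocytes and migrating tumour cells. None of the cornified genes serves thyroid hormone production, while several S100 proteins are raised in human papillary thyroid carcinoma. AP-1, a factor downstream of MAPK signalling, is a known regulator of involucrin and Sprr promoters in keratinocytes.

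Promoters were available from RefSeq (GRCm38.p6) for 48 of the 53 members. They are shown for 4 genes that behaved differently in the comparisons that follow: Ivl, Sprr1a, Lce1g and S100a6. The windows are chr3:92573686-92573985, minus strand for Ivl, chr3:92485832-92486131, minus strand for Sprr1a, chr3:92752289-92752588, minus strand for Lce1g and chr3:90612644-90612943, plus strand for S100a6, each read from 250 bases before the annotated start to 50 after it. Capitals mark the AP-1 letters TGAGTCA on either strand and the TATA letters TATAAA.
Ivl: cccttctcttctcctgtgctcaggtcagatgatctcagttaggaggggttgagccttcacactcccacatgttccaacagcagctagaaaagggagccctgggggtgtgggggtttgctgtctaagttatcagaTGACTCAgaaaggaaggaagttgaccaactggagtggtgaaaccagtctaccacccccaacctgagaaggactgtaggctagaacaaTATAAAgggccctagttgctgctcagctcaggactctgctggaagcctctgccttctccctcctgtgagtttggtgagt
Sprr1a: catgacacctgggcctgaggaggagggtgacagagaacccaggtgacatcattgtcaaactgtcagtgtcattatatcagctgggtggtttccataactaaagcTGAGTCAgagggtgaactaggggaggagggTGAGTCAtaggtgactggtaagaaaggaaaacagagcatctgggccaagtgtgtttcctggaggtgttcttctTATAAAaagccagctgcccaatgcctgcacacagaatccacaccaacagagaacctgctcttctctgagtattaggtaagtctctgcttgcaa
Lce1g: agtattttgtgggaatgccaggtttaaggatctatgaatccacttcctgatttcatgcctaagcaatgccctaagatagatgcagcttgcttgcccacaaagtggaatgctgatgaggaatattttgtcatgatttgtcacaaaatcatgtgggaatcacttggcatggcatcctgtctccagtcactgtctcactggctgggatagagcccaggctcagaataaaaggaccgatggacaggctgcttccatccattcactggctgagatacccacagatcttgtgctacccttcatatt
S100a6: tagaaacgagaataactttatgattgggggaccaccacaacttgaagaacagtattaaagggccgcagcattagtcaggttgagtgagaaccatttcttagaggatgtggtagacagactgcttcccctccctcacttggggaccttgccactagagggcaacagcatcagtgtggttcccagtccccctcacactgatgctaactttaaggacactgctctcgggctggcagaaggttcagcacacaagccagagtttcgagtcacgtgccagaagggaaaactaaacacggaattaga
The Ivl window holds 1 AP-1 match, which begins at -116 from the start, and a TATA match at -29. Sprr1a holds AP-1 matches at -146 and -116 and a TATA match at -43. Neither word is present in the Lce1g and S100a6 windows. TGAGTCA, searched on both strands, was found in 11 of the 52 promoter windows of these 48 members, some of which have several annotated windows, against 5.2% of all 32851 windows of the same length. The 11 belong to Ivl, Lor, S100a11, Sprr1a and 7 Sprr2 genes. In all 7 Sprr2 genes a match begins between -198 and -193, and Sprr2k has a further match at -182. TATAAA was found in 23 of the 52 windows, against 13.6% of all windows. The ETS word CCGGAAG was found in 0 of the 52 windows, against 8.86% of all windows. A match of letters is a description of the sequence, and no factor binding was measured here.

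Of the 53 members 28 had enough counts to be tested, and the other 25 did not. Hrnr, Lce1b, Lce1c, Lce1i, Lce1j and Sprr4 had 0 counts in every library, and the other 19 had 1 to 38 counts summed over all 28 libraries. Those 19 include filaggrin (Flg, 1 count in all), cornulin (Crnn, 12), repetin (Rptn, 38), Sprr1b (13) and Sprr3 (14), which are abundant in keratinizing epithelia. The tested members were all 13 S100a genes, Ivl, Lor, 8 of the 16 Sprr genes and 5 of the 18 Lce genes, so most of the late cornified genes were at or near 0 in these thyroids. Close copies share reads. Of all words of 50 bases in their transcripts, 61.1% of those of Sprr2a3, 48.04% of Lce3f and 35.7% of Lce3c also occur in transcripts of other genes, and 47.4% for S100a4 and 41.1% for S100a11, so these counts are uncertain to that extent. The share was 19.94% for Lce1h, 19% for Lce3a, 17.8% for Lce1g, 14.1% for Sprr2b and 10.2% for Sprr2e, and lower than that for every tested member not yet named. The share was 0.48% for Ivl, and Sprr1a, Sprr2g, S100a6 and S100a14 shared no such word. S100a1 and S100a13 overlap each other in the annotation, and the labels do not say that strand was kept, so reads of these 2 may be counted together. S100a3 likewise overlaps the annotated gene S100a2. Sprr2g is annotated as a transcribed pseudogene.

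Libraries held 23879271 to 34400066 counts. The target genes were read as a check of the labels: Smarcb1 stood at 2.28, 10.03 and 17.9 CPM in Braf Smarcb1 knockout with vehicle, against 101, 56.97 and 131 CPM in Braf with vehicle. The 2 groups did not overlap (log2 fold change -3.26, SE 0.62, adjusted p = 0.000592). Where groups are said not to overlap, here and below, this describes the libraries. The share of all genes that separate in this way was not counted. Arid1a and Arid2 did not pass the test in the groups that lack them, and whole-gene counts include reads outside a deleted part, so they do not check those labels. Arid2 pointed upward in Braf Arid2 knockout with vehicle, at 37.5 and 15.5 CPM (log2 fold change 0.87). In Braf with vehicle it was at 7.03, 16.8 and 19.7 CPM. Arid1a pointed downward in Braf Arid1a knockout with vehicle against Braf (log2 fold change -0.601). In the libraries labelled Arid1a knockout, Smarcb1 was also lower, at 22.3, 62.5 and 15.1 CPM, against 74.8, 152 and 111 CPM in wild type (log2 fold change -1.76, SE 0.58, adjusted p = 0.0373), and directions drawn from those libraries carry that limit. Markers of other cell types moved between groups, and their values are given beside the results they accompany. In bulk samples fewer cells of a type and less RNA per cell cannot be told apart. Braf vehicle library 2 was the highest of the 3 Braf vehicle libraries for 10 of the 13 S100a genes. The share of all genes highest in that library was not counted. Its TMM factor was the lowest of all libraries, at 0.723, against 0.962 and 0.88 in Braf vehicle libraries 4 and 5. A lower factor gives a higher CPM for every gene of a library.

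**Figure D1:**
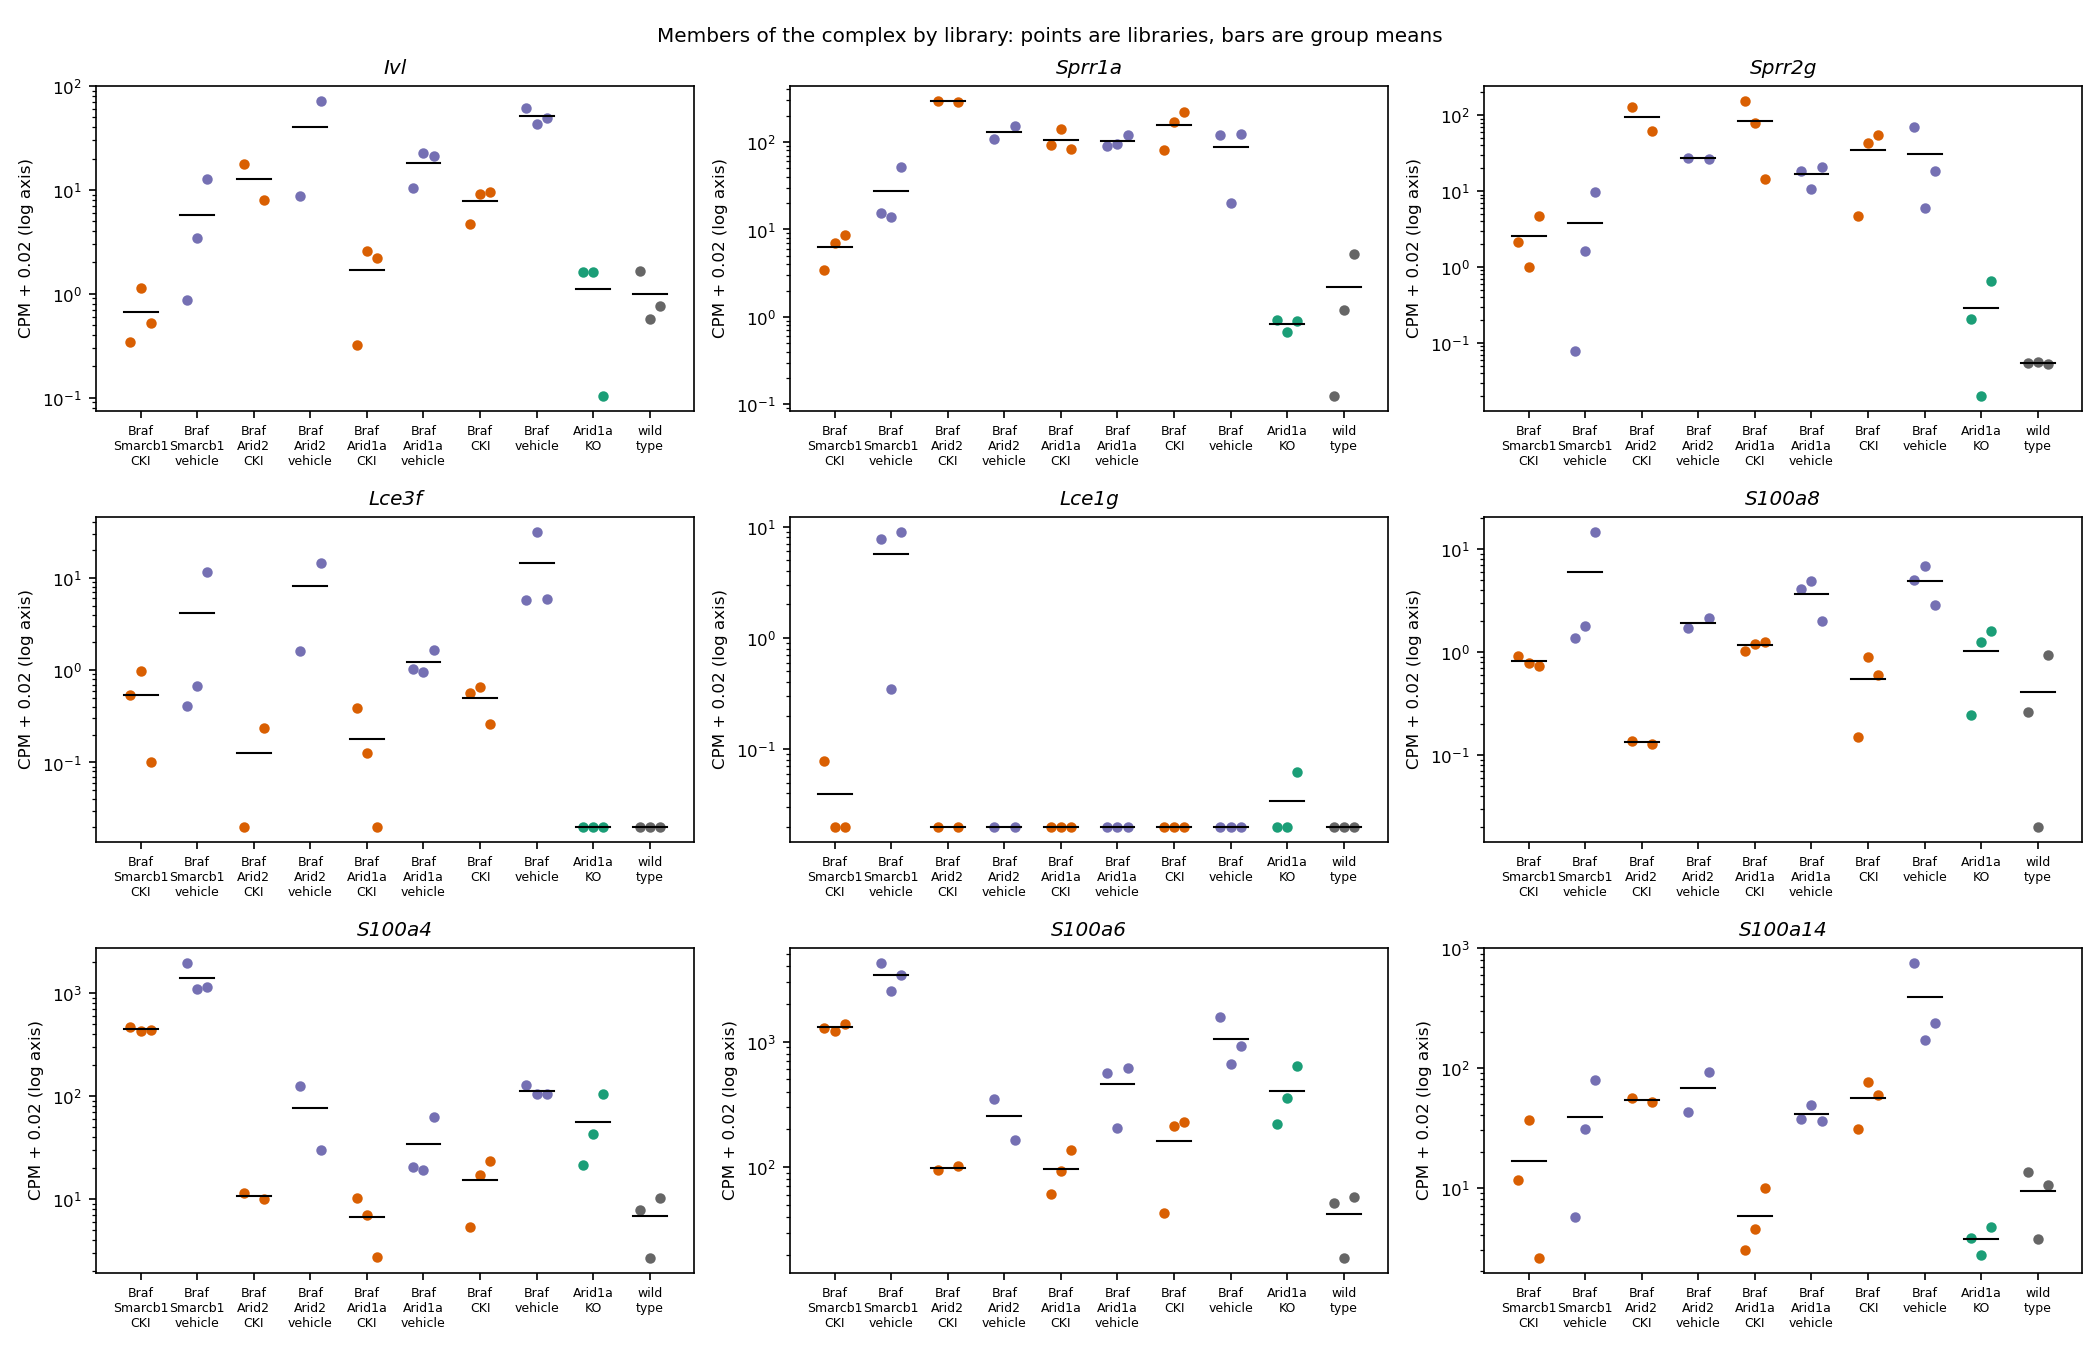
Levels of 9 members in each library, in CPM plus 0.02 on log axes, with points for the libraries and bars for the group means. Ivl, Sprr1a, Sprr2g, Lce3f and S100a14 are above wild type in every Braf vehicle library, and Lce1g is seen above 0.1 CPM in the Braf Smarcb1 knockout vehicle libraries only.

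The first comparison asked how thyroids with Braf V600E, given vehicle, differ from untreated wild type. Involucrin, 5 of 8 tested Sprr genes and 10 of 13 S100a genes were higher with Braf. Of the 28 tested members 18 rose and 1 fell (edgeR's quasi-likelihood test, Benjamini-Hochberg adjusted p under 0.05), while 20.0% of all 19016 tested genes were called, 9.84% higher and 10.1% lower. Ivl was at 60.9, 42.8 and 49.7 CPM in the Braf vehicle libraries, against 1.64, 0.551 and 0.736 CPM in wild type. All Braf libraries lay far above all wild-type libraries (log2 fold change 5.704, SE 1.05, adjusted p = 0.000531). Lor, the main protein of the mature envelope, was at 0.204, 0.0362 and 0.393 CPM in Braf vehicle and at 0.0698, 0.0735 and 0.06401 CPM in wild type, and it did not pass the test (log2 fold change 1.55, SE 1.25, adjusted p = 0.413). An early envelope gene thus passed the test and the later one did not, and the difference between the 2 genes was not tested.

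Among the small proline-rich genes 5 of the 8 tested rose with Braf. Sprr1a, a cross-bridging protein also known from injured tissue, stood at 119, 19.9 and 124 CPM in Braf vehicle, against 0.105, 1.18 and 5.22 CPM in wild type (log2 fold change 5.32, SE 0.87, adjusted p = 0.0001704). Library 4 was well below the other Braf libraries but still above every wild-type library. The transcribed pseudogene Sprr2g was at 69.1, 5.896 and 18.6 CPM in Braf vehicle and had 1 count in each wild-type library, a ratio of 796 (95% counting interval 272 to 3861; adjusted p = 0.000439). Here too library 4 was the lowest with Braf. Sprr2b, Sprr2e and Sprr2k had 0 counts in wild type and were at least 55.9-fold, 38.3-fold and 62.3-fold higher with Braf (adjusted p = 0.00196, 0.00364 and 0.00115). Each such fold sets 3 counts over the whole group in place of 0, and floors and intervals cover counting error only. Their levels stayed low, and Sprr2e, at 4.02, 0.0362 and 0.629 CPM in the Braf vehicle libraries, rested mostly on library 2. Sprr2a3, Sprr2d and Sprr2f did not pass the test, and Sprr2f had 0 counts in both groups.

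Of the late cornified genes, Lce3f was at 5.81, 31.7 and 5.98 CPM in Braf vehicle and at 0 counts in all wild-type libraries, at least 456-fold higher (adjusted p = 0.0009399). Library 4, which was low for Sprr1a and Sprr2g, was the highest for Lce3f. Lce3a also rose, at 0.458, 0.868 and 0.511 CPM with Braf and 0 counts in wild type, at least 18.4-fold higher (adjusted p = 0.0421). Its call was lost without any 1 of the 6 libraries (adjusted p = 0.0607 to 0.108). Lce1g had 0 counts in both groups, Lce1h had 4 counts in 1 Braf library, and Lce3c did not pass the test.

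Among the S100a genes 11 of 13 rose or fell with Braf. S100a6, or calcyclin, reached 1575, 658 and 918 CPM with Braf, against 51.4, 18.8 and 57.2 CPM in wild type (log2 fold change 4.63, SE 0.62, adjusted p = 2.14e-05). S100a14, an epithelial S100 protein, was at 755, 170.3 and 236 CPM in Braf vehicle, against 13.5, 3.68 and 10.6 CPM in wild type (log2 fold change 5.38, SE 0.94, adjusted p = 0.000319). S100a4, known from fibroblasts and metastatic cells, was at 129, 105 and 104 CPM in Braf vehicle, against 7.78, 2.68 and 10.4 CPM in wild type (log2 fold change 4.02, SE 0.71, adjusted p = 0.000358). For each of these 3 genes every Braf library lay above every wild-type library, and library 2 was the highest with Braf. S100a7a, a keratinocyte S100 protein, rose at a low level, at 3.36, 1.81 and 2.71 CPM in Braf vehicle and 0.1396, 0.294 and 0.09601 CPM in wild-type thyroids (log2 fold change 3.87, adjusted p = 0.00415).

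A further 5 S100a genes rose. S100a10, the annexin A2 partner, was at 1141, 394 and 467 CPM in Braf vehicle and 288, 128 and 251 CPM in wild-type thyroids (log2 fold change 1.58, adjusted p = 0.00655). S100a16 (log2 fold change 1.66), S100a13 (1.26), S100a11 (1.08) and S100a3, a hair cuticle protein (3.12), also rose. S100a1, a protein of heart and muscle calcium handling, did not pass the test (log2 fold change -0.46, adjusted p = 0.419). Braf vehicle library 2 decided part of these calls. Without it S100a10 (log2 fold change 0.94, adjusted p = 0.0909) and S100a3 (log2 fold change 2.23, adjusted p = 0.0704) lost the call, and S100a16 kept it at log2 fold change 1.04, adjusted p = 0.03304. S100a11 and S100a13 lost it without that library or without wild-type library 2 or 3 (adjusted p = 0.0606 to 0.122 for S100a11 and adjusted p = 0.0569 to 0.339 for S100a13).

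S100a5, a protein of olfactory neurons, was the 1 member that fell. It was at 0.153, 0.109 and 0.157 CPM with Braf, against 6.39, 1.397 and 4.61 CPM in wild type, with no overlap (log2 fold change -4.86, SE 1.08, adjusted p = 0.00291). The neighbouring S100a4 and S100a6 moved the other way. The calprotectin subunit S100a8 rose, at 5.04, 6.91 and 2.87 CPM in Braf vehicle and 0.244, 0 and 0.928 CPM in wild-type thyroids (log2 fold change 3.63, adjusted p = 0.0125), and the call was lost without wild-type library 1 (log2 fold change 3.41, adjusted p = 0.0529). Its partner S100a9 was at 0.204, 5.896 and 3.26 CPM in Braf vehicle and 0.454, 0.0368 and 0.896 CPM in wild type and did not pass the test (adjusted p = 0.0647).

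Other cell types differed between these groups as well. Leukocyte markers summed to 484 to 903 CPM in Braf vehicle and 144 to 368 CPM in wild type, and 3 of 7 rose. Fibroblast markers summed to 1195 to 24843 CPM in Braf vehicle and 813 to 1542 CPM in wild type, and 9 of 10 rose. Library 2, the highest Braf library for S100a6 and S100a14, had the lowest fibroblast sum of the 3, at 1195 CPM, and the lowest leukocyte sum, at 484 CPM. Neutrophil markers summed to 36.7 to 448 CPM with Braf and 6.49 to 249 CPM in wild type, with the defining gene Ly6g at 0 in both groups. Markers of squamous epithelium, the keratins Krt5, Krt14 and others, summed to 88.3 to 186 CPM in Braf vehicle and 45.02 to 167 CPM in wild type. These sums overlap, and 2 of the 10 tested markers rose and 1 fell. A fit with the leukocyte level as a covariate called 15 members, S100a4 and S100a6 among them, and Lce3a, S100a8, S100a11 and S100a13 lost the call. Over all genes 2643 were called with that covariate and 3795 without it. The leukocyte levels of Braf vehicle and wild type did not overlap, so level and group cannot be told apart, also for the calls that stayed. The part of fibroblasts in these results was not tested.

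**Figure D2:**
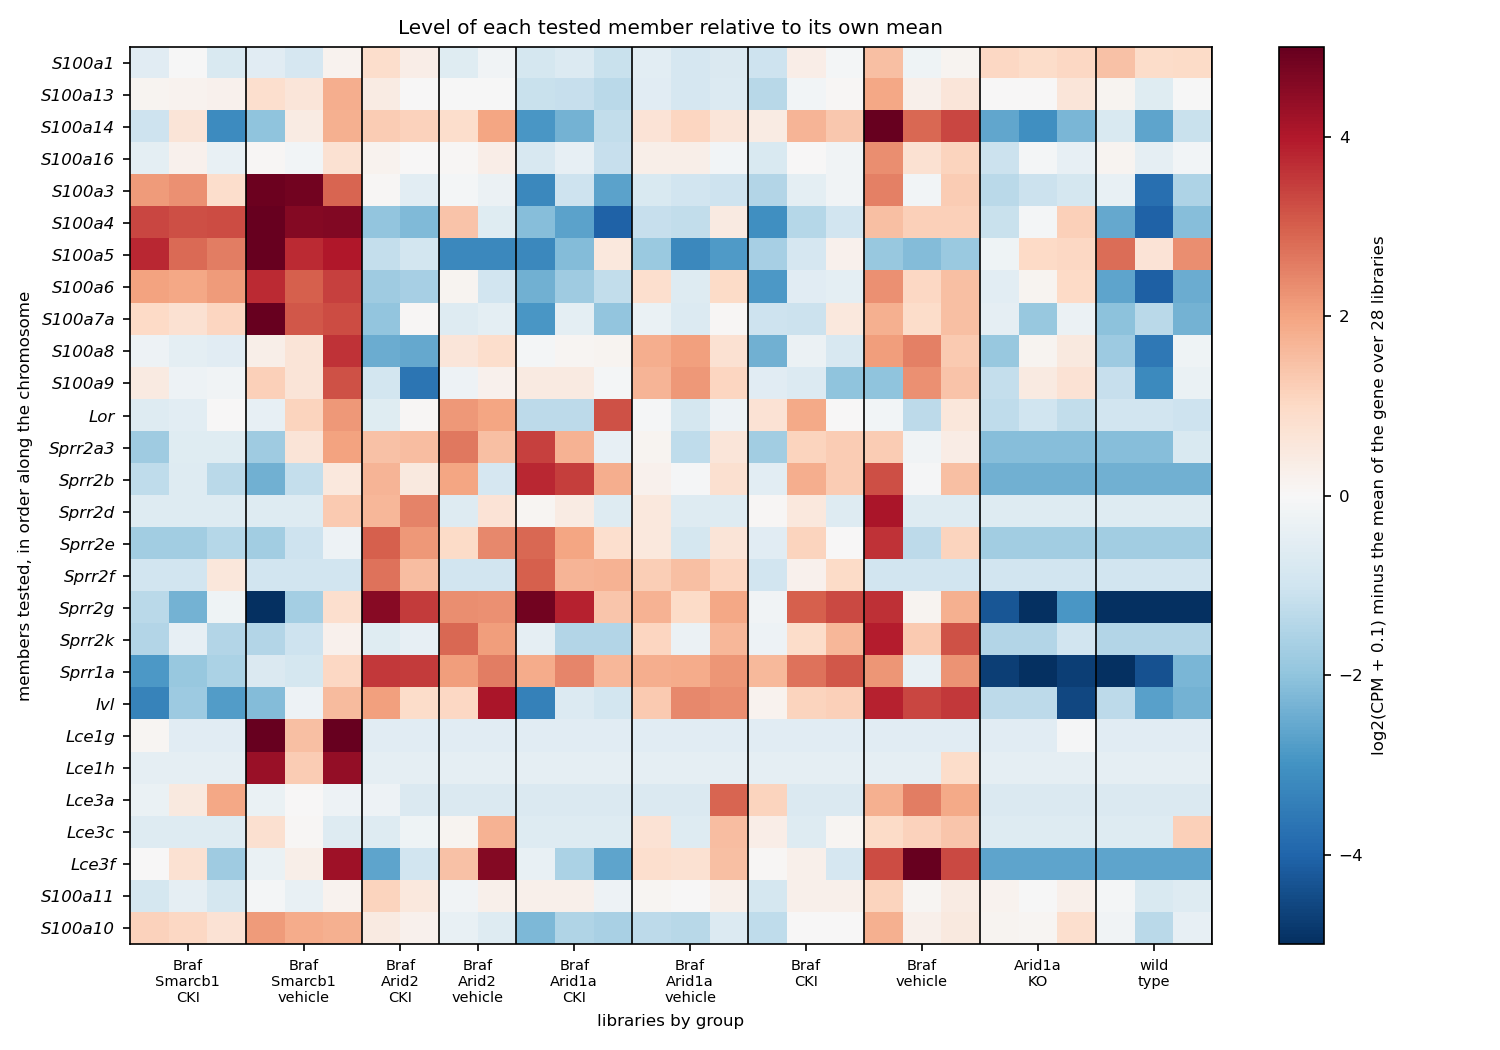
Level of each tested member in each library as log2(CPM + 0.1) minus the mean of that gene over the 28 libraries, with genes down the page in their order along the chromosome and libraries across by group. S100a3 to S100a7a form a block of high values in Braf Smarcb1 knockout, while Ivl, Sprr1a and Sprr2g are low in the libraries without Braf. Low values also occur with Braf, as for Ivl in the Braf Smarcb1 and Braf Arid1a knockouts with CKI.

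The Braf Arid1a knockout with vehicle was set against the untreated libraries labelled Arid1a knockout, another setting of Braf against no Braf, with other libraries on both sides. Ivl, 7 of 8 tested Sprr genes, Lce3a and Lce3f rose there. Of the 28 tested members 11 rose and 3 fell, while 40.5% of all genes were called, 21.3% higher and 19.2% lower. Ivl was at 10.4, 22.5 and 21.2 CPM in Braf Arid1a knockout, against 1.61, 1.61 and 0.0836 CPM in the libraries labelled Arid1a knockout (log2 fold change 4.01, SE 0.97, adjusted p = 0.00242). Sprr1a was at 91.1, 93.7 and 121 CPM in Braf Arid1a knockout, against 0.899, 0.652 and 0.878 CPM in the libraries labelled Arid1a knockout (log2 fold change 6.97, SE 0.95, adjusted p = 1.29e-05). Sprr2g was at 18.3, 10.7 and 21.01 CPM in Braf Arid1a knockout, against 0.187, 0 and 0.627 CPM in those libraries (log2 fold change 5.97, SE 1.39, adjusted p = 0.00177). None of these 3 genes overlapped between the groups.

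A further 5 Sprr2 genes rose, each with 0 or 1 count in the libraries labelled Arid1a knockout. Sprr2a3, Sprr2b, Sprr2e and Sprr2f were at least 9.85-fold, 15.8-fold, 8.36-fold and 9.55-fold higher in Braf Arid1a knockout. Sprr2k, with 1 count in the libraries labelled Arid1a knockout, had a ratio of 38.5 (95% counting interval 6.55 to 1556). Lce3f, at 1.02, 0.937 and 1.64 CPM in Braf Arid1a knockout, was at least 32.5-fold higher (adjusted p = 0.00788). Lce3a rested on 1 library (0, 0 and 1.15 CPM in Braf Arid1a knockout), and without that library, number 3, both groups were at 0 counts. The calls of Lce3a (adjusted p = 0.0882 to 1) and Sprr2a3 (adjusted p = 0.0535 to 0.0612) were lost without that library or without any 1 of the libraries labelled Arid1a knockout. Sprr2k lost its call without Braf Arid1a knockout library 3 or the library 1 or 2 labelled Arid1a knockout (adjusted p = 0.05397 to 0.0693), and Sprr2e without the library 1 or 3 labelled Arid1a knockout (adjusted p = 0.0517 to 0.0573). With the replicate number as a block Lce3a lost its call (log2 fold change 5.49, adjusted p = 0.1302). S100a14 rose as well, at 37.3, 49.2 and 35.9 CPM in Braf Arid1a knockout and 3.78, 2.71 and 4.68 CPM in the libraries labelled Arid1a knockout (log2 fold change 3.45, adjusted p = 0.00301).

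S100a6 and S100a4 did not pass the test in this setting (adjusted p = 0.797 and 0.375), and they were the members that rose in the libraries labelled Arid1a knockout. Against wild type those libraries showed 2 rises and 0 falls among the 28 tested members, while 18.6% of all genes were called, 6.84% higher and 11.8% lower. S100a6 was at 219, 354 and 634 CPM in the libraries labelled Arid1a knockout, against 51.4, 18.8 and 57.2 CPM in wild type (log2 fold change 3.24, SE 0.59, adjusted p = 0.00194). S100a4 was at 21.3, 43.3 and 105 CPM in the libraries labelled Arid1a knockout, against 7.78, 2.68 and 10.4 CPM in wild type (log2 fold change 3.03, SE 0.68, adjusted p = 0.00494). Leukocyte markers rose in 7 of 7 cases, with sums of 1490.1 to 2332 CPM in the libraries labelled Arid1a knockout and 144 to 368 CPM in wild type. Fibroblast markers rose in 6 of 10 cases, with sums of 10331 to 14326 CPM in the libraries labelled Arid1a knockout and 813 to 1542 CPM in wild type. With the leukocyte level as a covariate 0 of the 2 calls remained (log2 fold change 3.94, adjusted p = 0.0669 for S100a6 and log2 fold change 1.76, adjusted p = 0.463 for S100a4). Over all genes 8 were called with that covariate and 3538 without it. At an unadjusted p under 0.05 edgeR without it gave 3 members and 6177 of all 19016 genes. The leukocyte levels of these groups did not overlap, so level and group cannot be told apart. Ivl, at 1.61, 1.61 and 0.0836 CPM in the libraries labelled Arid1a knockout, did not pass the test against wild type (adjusted p = 0.924).

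The 3 members that fell in Braf Arid1a knockout against the libraries labelled Arid1a knockout were S100a genes. S100a1 was at 259, 207 and 222 CPM in Braf Arid1a knockout, against 751, 688 and 745 CPM in the libraries labelled Arid1a knockout (log2 fold change -1.67, adjusted p = 0.00167). S100a10 was at 132, 125 and 207 CPM in Braf Arid1a knockout, against 367, 353 and 595 CPM in those libraries (log2 fold change -1.503, adjusted p = 0.00415). S100a5 was at 0.159, 0 and 0.0303 CPM in Braf Arid1a knockout, against 0.712, 1.75 and 1.798 CPM in those libraries (log2 fold change -4.34, adjusted p = 0.00394). S100a5 was thus lower with Braf in both settings, and S100a10, which rose with Braf alone, fell here. In this setting 5 of 7 leukocyte, 9 of 9 macrophage and 9 of 10 fibroblast markers fell. With the leukocyte level as a covariate 12 members were called, and Sprr2e and Sprr2f lost the call (log2 fold change 6.43, adjusted p = 0.0513 for Sprr2e and log2 fold change 6.36, adjusted p = 0.0612 for Sprr2f). Over all genes 4876 were called with that covariate and 7698 without it. The leukocyte levels of these groups did not overlap, so level and group cannot be told apart.

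**Figure D3:**
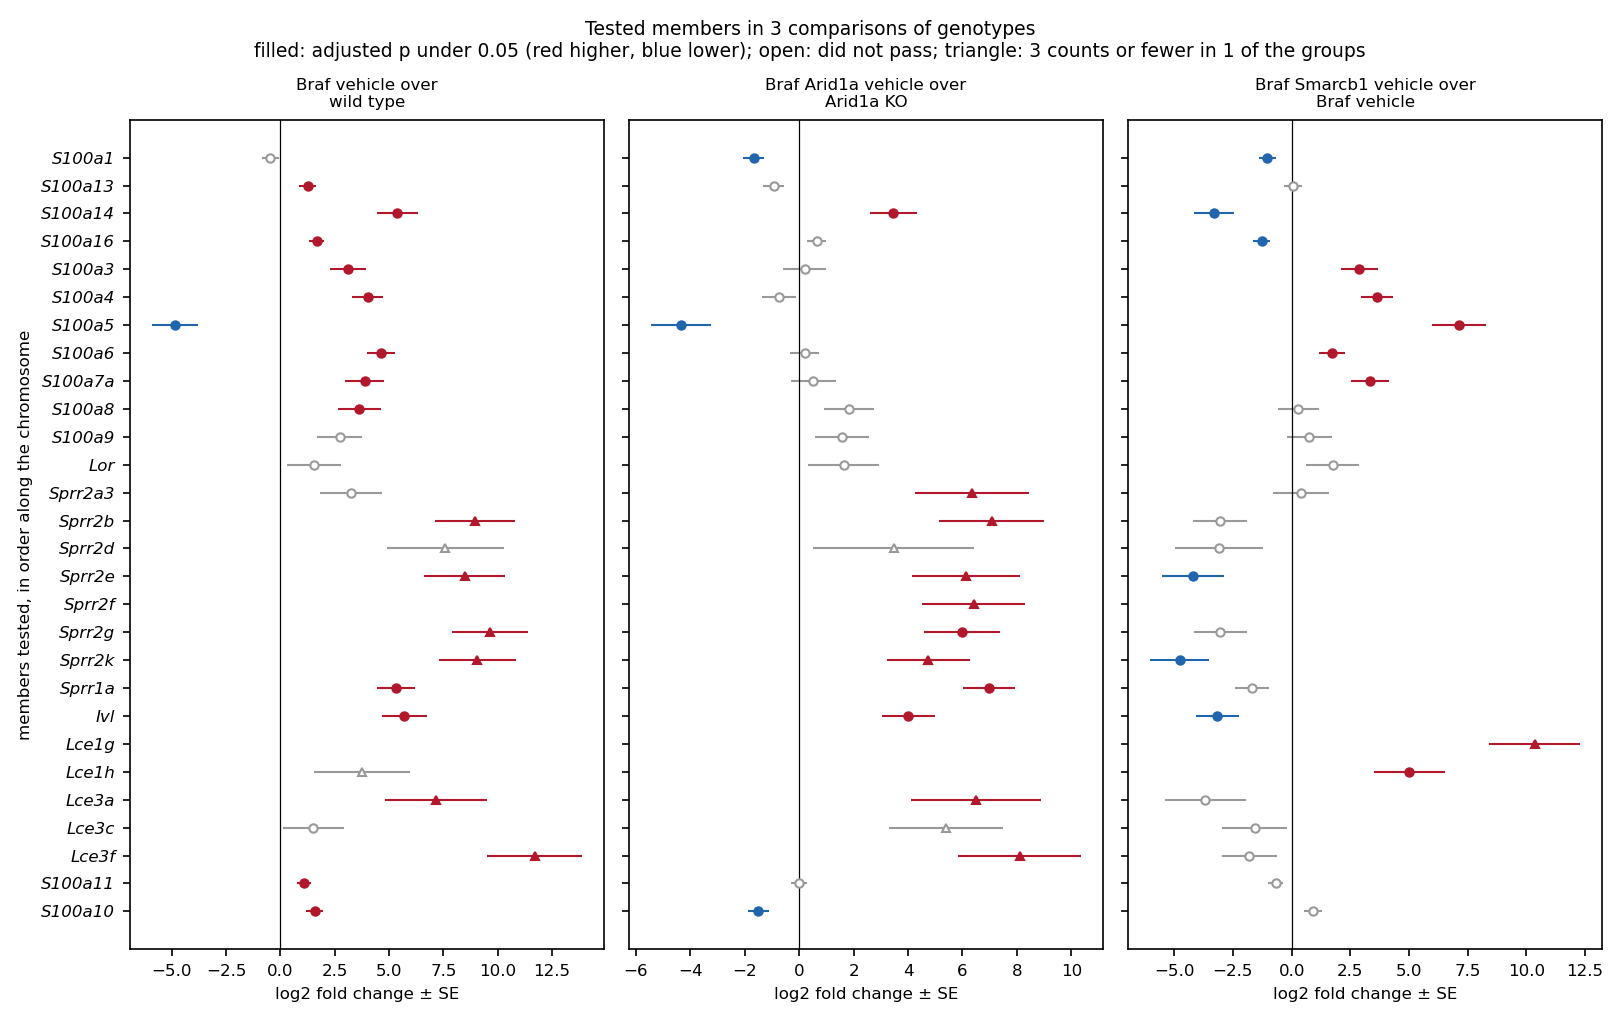
Log2 fold change with its SE for each tested member in 3 comparisons of genotypes, with genes in their order along the chromosome. Filled points passed an adjusted p of 0.05, triangles mark genes with 3 counts or fewer in 1 of the groups, whose fitted folds are no bound, and genes with so few counts in both groups are left out.

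Loss of Smarcb1 changed the complex in both directions. Braf Smarcb1 knockout with vehicle was compared with Braf with vehicle, and of the 28 tested members 7 rose and 6 fell, while 28.6% of all genes were called, 14.4% higher and 14.2% lower. The 5 neighbouring S100a genes from S100a3 to S100a7a all rose. S100a4 reached 1971, 1105 and 1136 CPM in Braf Smarcb1 knockout, against 129, 105 and 104 CPM in Braf (log2 fold change 3.64, SE 0.69, adjusted p = 0.000609). S100a5, which was nearly absent with Braf alone, was at 33.3, 12.4 and 14.9 CPM in Braf Smarcb1 knockout, against 0.153, 0.109 and 0.157 CPM in Braf (log2 fold change 7.14, SE 1.16, adjusted p = 0.000166). Every knockout library was above every Braf library for both genes.

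S100a6 was already abundant with Braf and rose further, to 4257, 2556 and 3428 CPM in Braf Smarcb1 knockout, against 1575, 658 and 918 CPM in Braf (log2 fold change 1.701, SE 0.55, adjusted p = 0.0242). S100a3 was at 55.7, 53.1 and 13.9 CPM in Braf Smarcb1 knockout, against 10.7, 1.59 and 4.403 CPM in Braf (log2 fold change 2.88, SE 0.79, adjusted p = 0.00908). S100a7a was at 61.5, 8.53 and 9.496 CPM in Braf Smarcb1 knockout, against 3.36, 1.81 and 2.71 CPM in Braf (log2 fold change 3.34, SE 0.82, adjusted p = 0.004403), and library 1 was far above the other knockout libraries. The groups did not overlap for any of the 3. Without Braf Smarcb1 knockout library 1 the call of S100a7a was lost (log2 fold change 1.75, adjusted p = 0.0958), and that of S100a6 was lost without the same library or without Braf vehicle library 4 or 5 (log2 fold change 1.41 to 1.56, adjusted p = 0.0772 to 0.108). With the leukocyte level as a covariate S100a4 and S100a5 kept the call, and S100a3 (log2 fold change 2.37, adjusted p = 0.1297), S100a6 (log2 fold change 1.26, adjusted p = 0.208) and S100a7a (log2 fold change 2.28, adjusted p = 0.181) lost it.

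S100a1, S100a14 and S100a16, which lie on the other side of S100a3, fell, while S100a13 among them did not pass the test. S100a14 was at 5.63, 30.9 and 79.5 CPM in Braf Smarcb1 knockout, against 755, 170.3 and 236 CPM in Braf, with no overlap (log2 fold change -3.32, SE 0.85, adjusted p = 0.00575). S100a16 was at 316, 272 and 507 CPM in Braf Smarcb1 knockout, against 1501, 509 and 648 CPM in Braf (log2 fold change -1.28, adjusted p = 0.0104). S100a1 overlapped between the groups, at 248, 204 and 413 CPM in Braf Smarcb1 knockout and 1045, 315 and 406 CPM in Braf (log2 fold change -1.03, adjusted p = 0.0455). The calls of S100a16 and S100a1 were lost without Braf vehicle library 2 or without knockout library 2, and that of S100a1 also without knockout library 1 (log2 fold change -1.14 to -0.57 for S100a16 and log2 fold change -0.97 to -0.23 for S100a1). S100a10, S100a11, S100a8 and S100a9 did not pass the test either.

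A pair of late cornified genes that lie side by side, Lce1g and Lce1h, appeared with Smarcb1 loss. Lce1g was at 7.77, 0.327 and 8.98 CPM in Braf Smarcb1 knockout and at 0 counts in all Braf vehicle libraries, at least 137-fold higher (adjusted p = 0.00306). Lce1h was at 2.61, 0.229 and 2.79 CPM in Braf Smarcb1 knockout, against 0, 0 and 0.157 CPM in Braf (log2 fold change 5.01, SE 1.51, adjusted p = 0.0377). Libraries 1 and 3 of the knockout carried both genes and library 2 had little of either. In all other groups Lce1g had 2 counts in a Braf Smarcb1 knockout CKI library and 1 in a library labelled Arid1a knockout, and Lce1h had 4 counts in Braf vehicle library 5. The Lce1 genes beside them, Lce1f, Lce1i and Lce1j, had 5, 0 and 0 counts over all libraries. DESeq2 did not call Lce1h (log2 fold change 5.19, adjusted p = 0.5701). Without knockout library 1 or 3 too few counts of Lce1h were left for it to be tested. Its call was lost without Braf vehicle library 2 or 4 (log2 fold change 4.396 to 4.61, adjusted p = 0.0909 to 0.0981), and without library 5, the 1 Braf library with counts, all Braf vehicle libraries were at 0 (log2 fold change 8.74, adjusted p = 0.0346, a fitted value that is no bound).

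Involucrin, Sprr2e and Sprr2k fell with Smarcb1 loss. Ivl was at 0.86, 3.43 and 12.8 CPM in Braf Smarcb1 knockout, against 60.9, 42.8 and 49.7 CPM in Braf (log2 fold change -3.17, SE 0.92, adjusted p = 0.0132). Sprr2k was at 0, 0.0327 and 0.22 CPM in Braf Smarcb1 knockout, against 4.08, 0.579 and 2.36 CPM in Braf (log2 fold change -4.78, adjusted p = 0.0083). Sprr2e was at 0, 0.0654 and 0.183 CPM in Braf Smarcb1 knockout and 4.02, 0.0362 and 0.629 CPM in Braf, with overlap (log2 fold change -4.204, adjusted p = 0.0216). Ivl and Sprr2k did not overlap between the groups. The call of Ivl was lost without knockout library 2 (log2 fold change -2.93, adjusted p = 0.0592), and that of Sprr2e without that library, knockout library 1 or Braf vehicle library 2 (adjusted p = 0.0716 to 0.27). Sprr1a, at 15.6, 13.8 and 52.4 CPM in Braf Smarcb1 knockout, and Sprr2g, at 0.0593, 1.601 and 9.79 CPM there, did not pass the test against Braf (adjusted p = 0.0901 and 0.0504).

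Fibroblast markers summed to 1718 to 2829 CPM in Braf Smarcb1 knockout and 1195 to 24843 CPM in Braf, and 6 of 10 fell. Leukocyte markers summed to 98.7 to 296 CPM in the knockout and 484 to 903 CPM in Braf, with 3 of 7 lower, and macrophage markers to 495 to 1879 CPM in the knockout and 3139 to 4321 CPM in Braf, with 6 of 9 lower. Which cells carry the S100a4 and S100a6 counts was not tested. With the leukocyte level as a covariate 5 of the 13 members called stayed so, namely Ivl, Lce1g, S100a4, S100a5 and S100a14. Over all genes 2539 were called with that covariate and 5433 without it. The leukocyte levels of these groups did not overlap, so level and group cannot be told apart, also for the calls that stayed. Squamous epithelium markers summed to 8.303 to 41.9 CPM in Braf Smarcb1 knockout and 88.3 to 186 CPM in Braf, and 3 of 10 fell.

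Loss of Arid1a lowered part of the S100a genes. Braf Arid1a knockout with vehicle was compared with Braf with vehicle, and 6 of the 28 tested members fell and 0 rose, while 9.56% of all genes were called, 4.25% higher and 5.31% lower. All 6 were S100a genes. S100a10 was at 132, 125 and 207 CPM in Braf Arid1a knockout, against 1141, 394 and 467 CPM in Braf (log2 fold change -2.11, SE 0.3998, adjusted p = 0.00218). S100a14 was at 37.3, 49.2 and 35.9 CPM in Braf Arid1a knockout, against 755, 170.3 and 236 CPM in Braf (log2 fold change -3.25, SE 0.84, adjusted p = 0.0184). S100a13 was at 55.04, 45.4 and 51.6 CPM in Braf Arid1a knockout, against 315, 97.3 and 124 CPM in Braf (log2 fold change -1.82, SE 0.395, adjusted p = 0.00606). S100a16, S100a1 and S100a3 had log2 fold changes of -1.37, -1.36 and -2.63. The groups did not overlap for any of the 6, and the share of all genes that separate in this way was not counted.

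Braf vehicle library 2 decided 5 of these 6 calls. Over all genes 1637 were called without it and 1818 with it. Without it S100a10 alone was called (log2 fold change -1.41, adjusted p = 0.0175), and S100a13 (log2 fold change -1.06, adjusted p = 0.0637), S100a14 (log2 fold change -2.25, adjusted p = 0.0962), S100a16 (log2 fold change -0.69, adjusted p = 0.194), S100a1 (log2 fold change -0.59, adjusted p = 0.323) and S100a3 (log2 fold change -1.67, adjusted p = 0.208) were not. The call of S100a1, S100a14 and S100a3 was also lost without any 1 of the Braf Arid1a knockout libraries, that of S100a16 without knockout library 1 or 3, and that of S100a3 without Braf vehicle library 5. With only the compared groups in the fit S100a10 and S100a14 kept the call and the other 4 lost it (adjusted p = 0.0507 to 0.1127). Over all genes that fit called 829, against 1818 with all groups in the fit. S100a6 and S100a11 did not pass (adjusted p = 0.178 and 0.352). Ivl, at 10.4, 22.5 and 21.2 CPM in Braf Arid1a knockout and 60.9, 42.8 and 49.7 CPM in Braf, did not overlap and did not pass the test (log2 fold change -1.504, SE 0.86, adjusted p = 0.292). Fibroblast markers summed to 398 to 967 CPM in Braf Arid1a knockout and 1195 to 24843 CPM in Braf, with 9 of 10 lower, and their part in these falls was not tested.

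With Arid2 loss 0 of the 28 tested members passed edgeR's quasi-likelihood test under vehicle, while 3.61% of all genes were called, 2.33% higher and 1.28% lower. At an unadjusted p under 0.05 there were 11 members and 4185 of all 19016 genes. DESeq2 called 4 members and 2029 of all genes. The group had 2 libraries, and they differed widely for several members: Ivl was at 8.71 and 72.2 CPM in Braf Arid2 knockout, against 60.9, 42.8 and 49.7 CPM in Braf (log2 fold change -0.34, SE 0.95, adjusted p = 0.878). S100a14 was below Braf in both libraries, at 42.9 and 92.02 CPM in Braf Arid2 knockout and 755, 170.3 and 236 CPM in Braf (log2 fold change -2.52, SE 0.96, adjusted p = 0.127). S100a6 was also below, at 347 and 164 CPM in Braf Arid2 knockout and 1575, 658 and 918 CPM in Braf (log2 fold change -2.04, SE 0.65, adjusted p = 0.07397). Sprr1a overlapped, at 109.7 and 154 CPM in Braf Arid2 knockout and 119, 19.9 and 124 CPM in Braf. The comparisons of the 3 knockouts share the Braf vehicle libraries.

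The labels set MEK inhibition against vehicle, and CKI was compared with vehicle in each genotype. In Braf thyroids CKI lowered part of the complex and left part of it without a call. Of the 28 tested members 9 fell and 0 rose, while 13.0% of all genes were called, 7.96% higher and 5.01% lower. Ivl was at 4.71, 9.06 and 9.61 CPM with CKI, against 60.9, 42.8 and 49.7 CPM with vehicle (log2 fold change -2.71, SE 0.903, adjusted p = 0.0495). All CKI libraries lay below all vehicle libraries, and above all wild-type libraries. Lce3f was at 0.552, 0.632 and 0.241 CPM with CKI, against 5.81, 31.7 and 5.98 CPM with vehicle (log2 fold change -4.93, SE 1.38, adjusted p = 0.0268).

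The Sprr genes did not pass the test with CKI. Sprr1a was at 80.4, 168 and 220.0 CPM with CKI, against 119, 19.9 and 124 CPM with vehicle (log2 fold change 0.84, SE 0.72, adjusted p = 0.476). Sprr2g was at 4.74, 43.6 and 54.4 CPM with CKI, against 69.1, 5.896 and 18.6 CPM with vehicle (log2 fold change 0.14, SE 1.05, adjusted p = 0.959). Both groups overlapped for each gene. The low Sprr2 genes did not pass either, from Sprr2f, at 0, 0.126 and 0.275 CPM with CKI and 0 counts with vehicle, to Sprr2k, at 0.1298, 0.421 and 0.758 CPM with CKI and 4.08, 0.579 and 2.36 CPM with vehicle. A p that misses the threshold does not show that Sprr1a and Sprr2g kept their level, and their difference from Ivl was not tested.

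Of the S100a genes 7 fell with CKI in Braf thyroids. S100a6 was at 43.3, 213 and 229.5 CPM with CKI, against 1575, 658 and 918 CPM with vehicle (log2 fold change -2.698, SE 0.57, adjusted p = 0.00695). S100a4 was at 5.42, 17.2 and 23.5 CPM with CKI, against 129, 105 and 104 CPM with vehicle (log2 fold change -2.87, SE 0.67, adjusted p = 0.0106). S100a16 was at 180.1, 309 and 269 CPM with CKI, against 1501, 509 and 648 CPM with vehicle (log2 fold change -1.81, SE 0.36, adjusted p = 0.00491). CKI library 1 was the lowest for all 3 genes, and no CKI library reached the vehicle range. S100a14 was at 31.03, 76.4 and 58.9 CPM with CKI, against 755, 170.3 and 236 CPM with vehicle (log2 fold change -2.803, adjusted p = 0.0303). S100a13 and S100a10 fell with log2 fold changes of -1.49 and -1.32. S100a8 was at 0.1298, 0.885 and 0.585 CPM with CKI, against 5.04, 6.91 and 2.87 CPM with vehicle (log2 fold change -3.22, adjusted p = 0.0337). Its partner S100a9 did not pass the test (adjusted p = 0.105). Neutrophil markers summed to 247 to 1329.5 CPM with CKI and 36.7 to 448 CPM with vehicle, and 1 of 8 fell. Their mean log2(CPM + 1), in which high genes weigh less, overlapped, at 0.908 to 1.745 with CKI and 0.89 to 1.861 with vehicle. The median log2 fold change of the 8 was -0.41, and Ly6g was at 0 in both groups.

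The number of members called in Braf thyroids ran from 2 to 8 when 1 library was left out, and S100a6 and S100a16 were the 2 called in every case. It was 2 without CKI library 1, 4 without CKI library 4, 5 without CKI library 5, and 3 without vehicle library 2, 7 without vehicle library 4 and 8 without vehicle library 5. Over all genes 806, 899 and 1894 were called without CKI library 1, 4 or 5, against 2466 with all libraries. Without vehicle library 2, 4 or 5 the calls over all genes were 726, 1353 and 2453. Ivl lost its call without any 1 library (log2 fold change -2.89 to -2.45, adjusted p = 0.0628 to 0.173), and Lce3f (adjusted p = 0.0501 to 0.0953) and S100a8 (adjusted p = 0.0639 to 0.139) without any 1 library other than vehicle library 5. S100a14 lost it without vehicle library 2 or any CKI library (log2 fold change -3.11 to -1.81), S100a10 without vehicle library 2 or CKI library 1 or 4 (log2 fold change -1.51 to -0.62), S100a13 without vehicle library 2 or CKI library 1 (log2 fold change -1.16 to -0.74) and S100a4 without CKI library 1 (log2 fold change -2.47). S100a16 stood at log2 fold change -1.13, adjusted p = 0.0485 without vehicle library 2.

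Leukocyte markers moved with these falls. They summed to 65.7 to 178 CPM with CKI and 484 to 903 CPM with vehicle in Braf thyroids, and 7 of 7 fell, as did 6 of 9 macrophage markers (570.4 to 1099 CPM with CKI and 3139 to 4321 CPM with vehicle). With the leukocyte level as a covariate 0 of the 9 members were called, with S100a6 at log2 fold change -3.35, adjusted p = 0.05202 and Ivl at log2 fold change -2.59, adjusted p = 0.436. Over all genes 103 were called with the covariate and 2466 without it. At an unadjusted p under 0.05 edgeR's fit without it gave 16 members and 5461 of all 19016 genes. The fold of Lce3f nearly vanished with the covariate (log2 fold change -0.25, adjusted p = 0.992), and those of S100a4 (log2 fold change -1.69, adjusted p = 0.454) and S100a8 (log2 fold change -1.81, adjusted p = 0.588) were also smaller than without it. The other 4, S100a10, S100a13, S100a14 and S100a16, had adjusted p = 0.1475 to 0.3018. Leukocyte level and treatment did not overlap in these libraries and cannot be told apart in this genotype. Fibroblast markers did not pass the test in any of 10 cases. Thyroid markers rose in 9 of 9 cases, with sums of 9972 to 22676 CPM with CKI and 639 to 1349.5 CPM with vehicle.

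**Figure D4:**
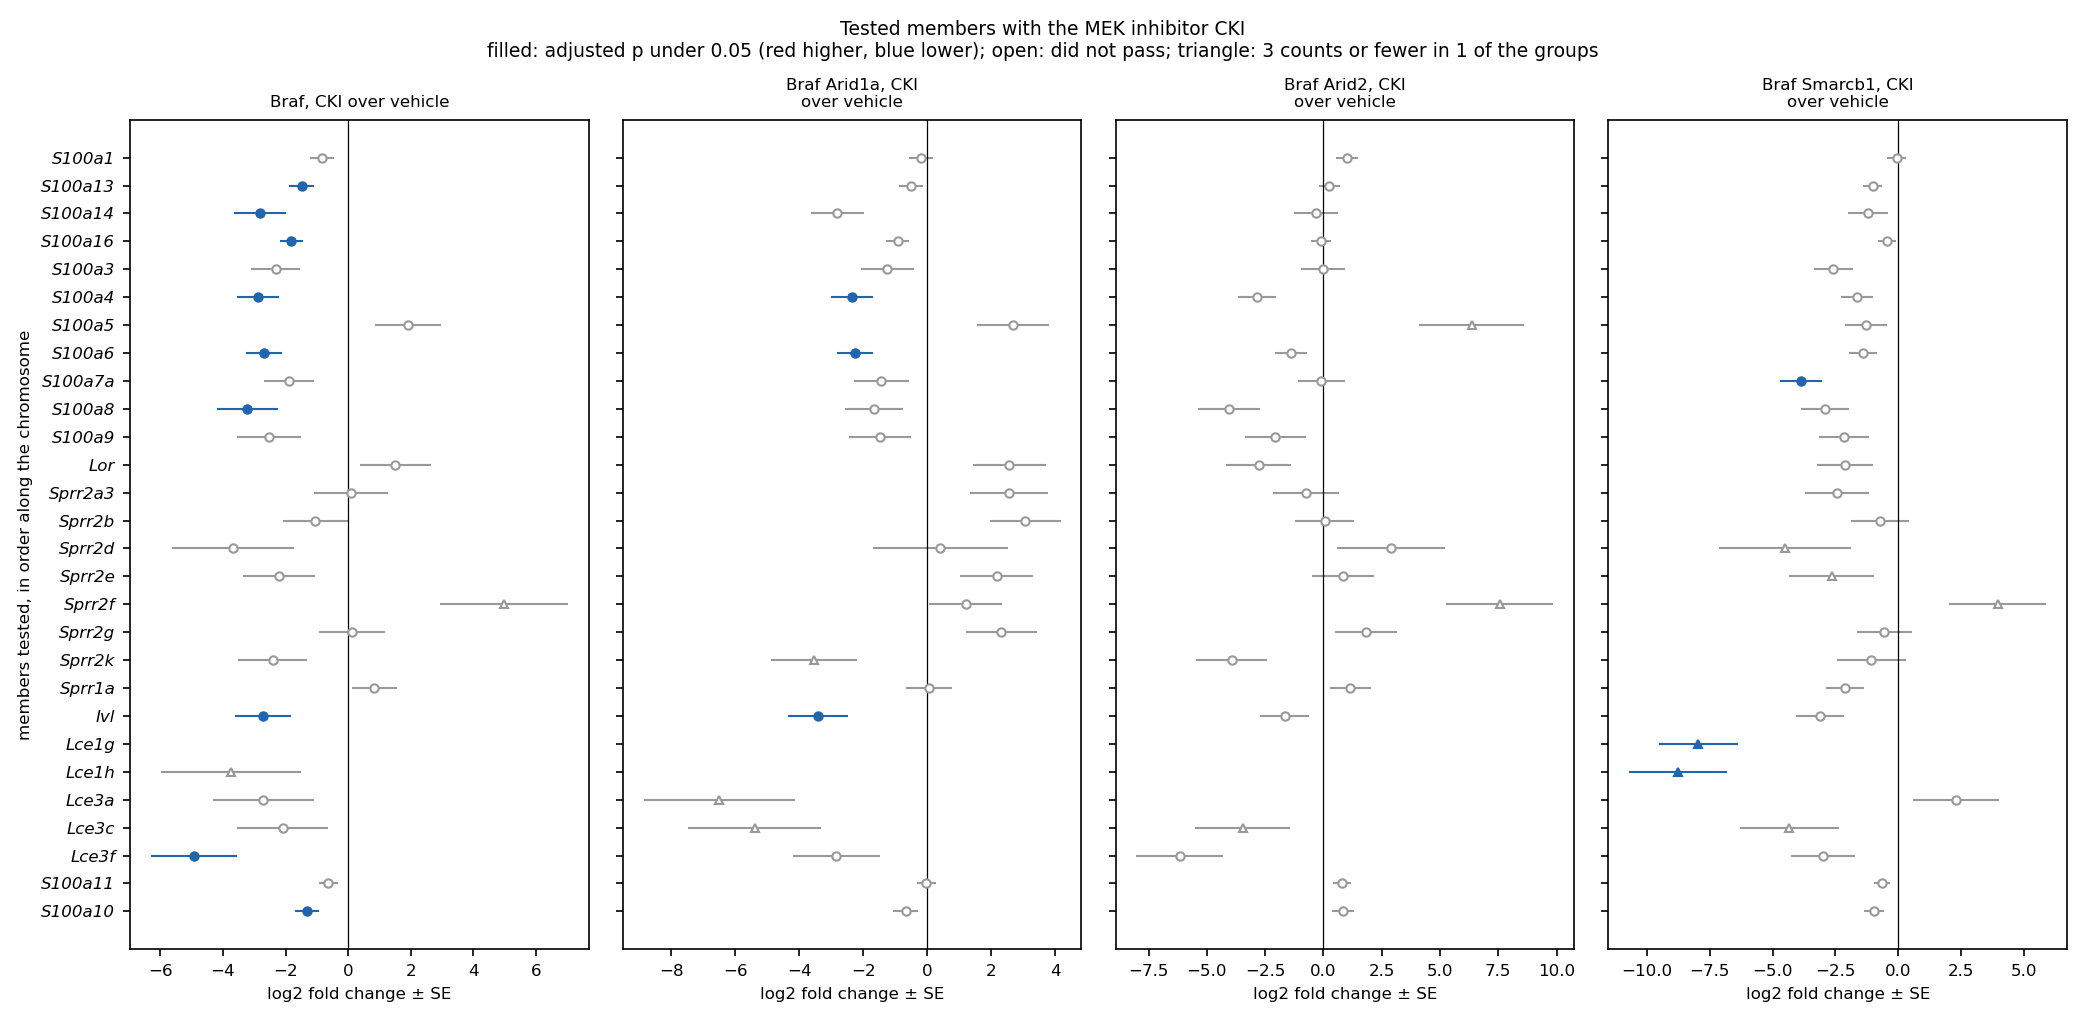
Log2 fold change of CKI over vehicle with its SE for each tested member in the 4 Braf genotypes, with genes in their order along the chromosome. Filled points passed an adjusted p of 0.05 (9 members in Braf, 3 in Braf Arid1a knockout, 0 in Braf Arid2 knockout and 3 in Braf Smarcb1 knockout), and triangles mark genes with 3 counts or fewer in 1 of the groups.

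In Braf Arid1a knockout 3 of the 28 tested members fell with CKI and 0 rose, while 4.51% of all genes were called, 2.51% higher and 2.00% lower. Ivl was at 0.304, 2.57 and 2.17 CPM with CKI, against 10.4, 22.5 and 21.2 CPM with vehicle (log2 fold change -3.42, SE 0.94, adjusted p = 0.0395). S100a6 was at 60.5, 92.3 and 136 CPM with CKI, against 567, 205 and 615 CPM with vehicle (log2 fold change -2.26, SE 0.56, adjusted p = 0.0254). S100a4 was at 10.3, 7.01 and 2.71 CPM with CKI, against 20.5, 19.3 and 62.8 CPM with vehicle (log2 fold change -2.35, SE 0.66, adjusted p = 0.0424). No CKI library reached the vehicle range for any of the 3. With only the compared groups in the fit all 3 lost the call (adjusted p = 0.0578 to 0.0917). Over all genes that fit called 527, against 858 with all groups in the fit. Ivl and S100a4 lost the call without any 1 of the 6 libraries (log2 fold change -3.87 to -2.92 and log2 fold change -2.81 to -1.57), and S100a6 without CKI library 2 or 4 or vehicle library 1 or 3 (log2 fold change -2.24 to -2.004, adjusted p = 0.0626 to 0.101). S100a14, at 2.98, 4.47 and 9.97 CPM with CKI and 37.3, 49.2 and 35.9 CPM with vehicle, did not overlap and did not pass (adjusted p = 0.0549).

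Sprr1a overlapped between treatments in this genotype, at 93.3, 141 and 82.3 CPM with CKI and 91.1, 93.7 and 121 CPM with vehicle (log2 fold change 0.051, SE 0.72, adjusted p = 0.989). Sprr2b was at 7.03, 5.72 and 1.75 CPM with CKI and 0.508, 0.407 and 0.819 CPM with vehicle. Its CKI libraries were all above its vehicle libraries, and it did not pass the test (log2 fold change 3.05, SE 1.11, adjusted p = 0.123). Leukocyte markers summed to 29.9 to 211 CPM with CKI and 222 to 619 CPM with vehicle, and 1 of 7 fell. With their level as a covariate S100a6 kept its call and Ivl and S100a4 did not. Over all genes 303 were called with that covariate and 858 without it. The leukocyte levels of these groups did not overlap, so level and treatment cannot be told apart here either.

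In Braf Arid2 knockout 0 of the 28 tested members were called with CKI by edgeR's quasi-likelihood test, while 3.37% of all genes were called, 1.41% higher and 1.96% lower. At an unadjusted p under 0.05 there were 8 members and 3965 of all 19016 genes. DESeq2 called 3 members and 1810 of all genes. S100a6 was at 94.1 and 101 CPM with CKI, against 347 and 164 CPM with vehicle (log2 fold change -1.39, SE 0.67, adjusted p = 0.2399). S100a4 was at 11.5 and 9.97 CPM with CKI, against 125 and 29.8 CPM with vehicle (log2 fold change -2.85, SE 0.82, adjusted p = 0.0558). Sprr1a was at 296 and 289.8 CPM with CKI, against 109.7 and 154 CPM with vehicle (log2 fold change 1.15, SE 0.89, adjusted p = 0.479). Both CKI libraries were below both vehicle libraries for S100a6 and S100a4 and above both for Sprr1a. Other members separated as well, some below and some above, with S100a1, S100a10, S100a11 and S100a13 among those above. With 2 libraries on each side such separation arises easily, and its share over all genes was not counted. It therefore does not show a response of these members. Ivl overlapped, at 17.6 and 7.94 CPM with CKI and 8.71 and 72.2 CPM with vehicle.

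In Braf Smarcb1 knockout 3 of the 28 tested members fell with CKI and 0 rose, while 3.85% of all genes were called, 1.80% higher and 2.05% lower. S100a7a was at 1.89, 1.59 and 2.001 CPM with CKI, against 61.5, 8.53 and 9.496 CPM with vehicle (log2 fold change -3.86, SE 0.84, adjusted p = 0.0116). Lce1g had 2 counts over the 3 CKI libraries, against 7.77, 0.327 and 8.98 CPM with vehicle, a ratio of 309 lower with CKI (95% counting interval 85.2 to 2561; adjusted p = 0.0214). Lce1h had 0 counts with CKI, against 2.61, 0.229 and 2.79 CPM with vehicle, and was at least 68.2-fold lower (adjusted p = 0.04599). DESeq2 did not call Lce1g (log2 fold change -8.22, adjusted p = 0.117) or Lce1h (log2 fold change -8.56, adjusted p = 0.467), and Lce1h was not tested without vehicle library 1 or 3, which left too few counts. The 3 calls were each lost without CKI library 1 or 2, those of Lce1g and Lce1h also without CKI library 4, and those of S100a7a and Lce1g without vehicle library 1 (log2 fold change -3.86 to -2.29, adjusted p = 0.0544 to 0.157 for S100a7a, adjusted p = 0.0668 to 0.0786 for Lce1g and adjusted p = 0.0986 to 0.123 for Lce1h).

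Of the 5 S100a genes that rose with Smarcb1 loss, S100a7a passed the test with CKI and S100a3, S100a4, S100a5 and S100a6 did not. S100a6 was at 1287, 1225 and 1385 CPM with CKI, against 4257, 2556 and 3428 CPM with vehicle (log2 fold change -1.39, SE 0.55, adjusted p = 0.167). S100a4 was at 468, 425 and 443 CPM with CKI, against 1971, 1105 and 1136 CPM with vehicle (log2 fold change -1.66, SE 0.64, adjusted p = 0.159). Both were lower in every CKI library than in any vehicle library, without passing the test, and every CKI library of this genotype was above the Braf vehicle libraries for S100a4. Ivl was at 0.3197, 1.11 and 0.507 CPM with CKI, against 0.86, 3.43 and 12.8 CPM with vehicle, with overlap (log2 fold change -3.12, SE 0.95, adjusted p = 0.0679). Sprr1a was at 3.43, 6.92 and 8.51 CPM with CKI, against 15.6, 13.8 and 52.4 CPM with vehicle, with no overlap (log2 fold change -2.11, SE 0.75, adjusted p = 0.121). Leukocyte and fibroblast markers did not pass the test in this comparison.

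The difference between a knockout's response to CKI and that of Braf alone was tested directly. With Arid1a loss 0 of 28 members differed by edgeR's quasi-likelihood test, while 0% of all genes were called. At an unadjusted p under 0.05 there were 2 members and 2018 of all 19016 genes, and DESeq2 called 0 members and 165 genes. With Smarcb1 loss 0 differed, while 0.305% of all genes were called, 0.110% higher and 0.195% lower. At an unadjusted p under 0.05 there were 5 members and 2194 of all genes, and DESeq2 called 0 members and 264 genes. Between Braf Smarcb1 knockout and Braf the S100a6 response differed by 1.304 on the log2 scale (SE 0.76) and that of Ivl by -0.41 (SE 1.21). With Arid2 loss 1 member, S100a10, differed, while 8.66% of all genes were called, 1.47% higher and 7.19% lower. S100a10 was at 455 and 379 CPM with CKI and 258 and 212 CPM with vehicle in Braf Arid2 knockout, and at 138, 335 and 331 CPM with CKI and 1141, 394 and 467 CPM with vehicle in Braf. The responses differed (difference of log2 fold changes 2.15, SE 0.61, adjusted p = 0.0338). The call was lost without Braf CKI library 1, Braf vehicle library 2 or any 1 of the 4 Braf Arid2 knockout libraries (difference 1.37 to 2.28, adjusted p = 0.0704 to 0.169).

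The genes that process and accompany these proteins were read from lists chosen with earlier results of these data known. Among 15 tested squamous differentiation enzymes 4 rose and 2 fell in Braf vehicle against wild type (median log2 fold change 1.02, against -0.026 over all genes). Tgm1, the transglutaminase that cross-links the cornified envelope, was at 189, 112 and 214 CPM in Braf vehicle, against 13.4, 17.3 and 17.9 CPM in wild-type thyroids (log2 fold change 3.404, adjusted p = 0.000238). It was at 398, 700.0 and 425 CPM in Braf Arid1a knockout, against 6.07, 8.89 and 5.65 CPM in the libraries labelled Arid1a knockout (log2 fold change 6.21, adjusted p = 1.12e-06). With Smarcb1 loss it fell, at 2.85, 25.6 and 28.9 CPM in Braf Smarcb1 knockout, against the Braf vehicle values above (log2 fold change -3.17, adjusted p = 0.000372). It did not pass the test with CKI in Braf, where all CKI libraries were above all vehicle libraries, at 263, 381 and 365 CPM with CKI (adjusted p = 0.229). The protease inhibitor Cst6 also rose with Braf (log2 fold change 4.24, adjusted p = 0.000736), and the calmodulin-like Calml3 fell (log2 fold change -3.95, adjusted p = 0.000975) and rose with CKI in all 4 genotypes (log2 fold change 2.39 in Braf, 3.99 in Braf Arid1a knockout, 3.603 in Braf Arid2 knockout and 3.04 in Braf Smarcb1 knockout).

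Of the 12 junction proteins of cornified cells 7 fell and 1 rose with Smarcb1 loss against Braf (median -1.99, against 0.028 over all genes). Desmoplakin, Dsp (log2 fold change -3.45, adjusted p = 0.000402), and plakophilin 3, Pkp3 (log2 fold change -3.26, adjusted p = 0.000938), were among those that fell. Of 15 squamous transcription factors 7 fell and 2 rose in the same comparison (median -1.19), among them Trp63 (log2 fold change -3.16, adjusted p = 0.000289), Grhl3 (log2 fold change -3.49, adjusted p = 2.97e-05) and Ovol1 (log2 fold change -3.62, adjusted p = 0.000668). In Braf vehicle against wild type 2 of these factors rose and 3 fell (median -0.82).

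Among 14 receptors and partners of S100 proteins 7 rose and 1 fell in Braf vehicle against wild type (median 1.02). Anxa1, a partner of S100a11, had log2 fold change 4.03, adjusted p = 2.69e-06, and Anxa2, the partner of S100a10, was at 8012, 3870.0 and 5141 CPM in Braf vehicle, against 975, 606 and 833 CPM in wild-type thyroids (log2 fold change 2.82, adjusted p = 5.64e-07). With CKI in Braf 7 of the 14 fell and 1 rose (median -1.02, against -0.013 over all genes), with Anxa2 at 1403, 2025 and 1869.9 CPM with CKI (log2 fold change -1.68, adjusted p = 0.0005601). With Arid1a loss Anxa2 fell (log2 fold change -1.47, adjusted p = 0.00136), as S100a10 did. The list also holds the leukocyte genes Cd68, Cybb and Tlr4, of which Cd68 and Tlr4 were among the 7 that rose with Braf and all 3 among the 7 that fell with CKI.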

How the data were processed

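RNA-seq of mouse thyroid was deposited by the authors as a table of whole-number read counts per gene, not normalized. The submitters' processing notes name STAR 2.4, HTSeq 0.6.1, DESeq2 and the build mm9, without roles, and whether strand was used is not given in the sources used here. Columns were matched to samples by title, and 28 of the 30 labelled samples were used, so fits planned on 30 libraries ran on 28. The other 2 samples were not analysed here.

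Genes were filtered with filterByExpr, scaled by TMM and fitted in 1 model of group means over all 28 libraries with edgeR 4.0.16 (quasi-likelihood test, limma 3.58.1, R 4.3.3). Over 13 comparisons, p-values were adjusted within each over 19016 genes by Benjamini-Hochberg, with a threshold of 0.05. The scripts were tested on simulated data. The labels do not state that each library is a separate animal. The p-values therefore reflect differences among libraries, which may be technical. All 26 pairs of libraries within groups differed by more than sampling noise. Libraries of different groups share only a number in the labels, and the fit of all groups held no pairing. No baseline was computed for the correlation of same-numbered libraries. They were treated as possible pairs where at least 3 pairs shared numbers and every pair's deviations correlated at r over 0.1. That held between Braf Arid1a knockout vehicle and the libraries labelled Arid1a knockout (r = 0.139, 0.134 and 0.19), and not between those libraries and wild type (r = 0.0711, 0.241 and 0.0561). Members were named with values where they passed in any comparison, or by the highest count of their role. Genes outside the rule came from lists, at most 4 per list by smallest p. The members and lists were chosen with earlier results of these data known. A gene planned among the thyroid markers is not reported here. Alternatives were RLE factors, no filter, DESeq2 1.42.0, a replicate block, the leukocyte level as a covariate, a fit of the compared groups alone, and each library left out.

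Promoters came from RefSeq (GRCm38.p6), while the counts used mm9, so that reference gave names, gene order and sequences only. Shared words of 50 bases were counted in GENCODE transcripts.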

Additional observations from a re-analysis of the deposited data

Results flagged for a closer look

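The response of S100a10 to CKI differed between Braf Arid2 knockout and Braf, by a test of the difference itself. The response within Braf Arid2 knockout did not pass its own test, so a rise there is not shown. The log2 fold change of CKI over vehicle was 0.83 in Braf Arid2 knockout and -1.32 in Braf, a difference of 2.15 (adjusted p = 0.0338, edgeR's quasi-likelihood test). Both CKI libraries of the knockout were above both of its vehicle libraries, and all 3 CKI libraries of Braf were below all 3 of its vehicle libraries. It was 1 of 28 members tested, with 8.66% of all genes called in the same test.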

How the results depend on the processing

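The counts of members called depended on the processing as follows, and the cause was not tested except where fewer libraries entered a fit. Adding the leukocyte level to the fit gave counts of 0 in the libraries labelled Arid1a knockout against wild type (2 without it), 0 for CKI in Braf (9), 1 for CKI in Braf Arid1a knockout (3) and 5 for Braf Smarcb1 knockout against Braf (13). Over all genes that fit called 8 in the first comparison (3538 without it) and 103 in the second (2466). It called 303 in the third (858) and 2539 in the fourth (5433). Leukocyte levels of the compared groups did not overlap in any of these. DESeq2 called 5 for CKI in Braf Arid1a knockout, 3 for CKI in Braf Arid2 knockout, 5 for CKI in Braf Smarcb1 knockout, 4 for Braf Arid2 knockout against Braf and 5 for the Arid2 difference in response. Over all genes it called 1843, 1810, 1569, 2029 and 2870 in that order, more than edgeR's 858, 640, 732, 686 and 1647. DESeq2 lost the calls of Lce1g and Lce1h for CKI in Braf Smarcb1 knockout, of Lce1h against Braf and of Lce3a in Braf Arid1a knockout against the libraries labelled Arid1a knockout, and it gave Lce3f no adjusted p in any of its 3 comparisons. With only the compared groups in the fit the count was 12 for Braf against wild type (19), 7 for Braf Smarcb1 knockout against Braf, 6 for CKI in Braf Arid2 knockout, 0 for CKI in Braf Smarcb1 knockout and 0 for the Arid2 difference in response. Over all genes that fit called 2658 for Braf against wild type (3795 with all groups) and 2335 for Smarcb1 loss (5433). For CKI it called 1651 genes in Braf Arid2 knockout (640) and 2 in Braf Smarcb1 knockout (732). For the Arid2 difference it called 1470 genes (1647). That fit lost S100a3, S100a8, S100a10, S100a11 and S100a13 for Braf against wild type, Ivl, S100a1, S100a14 and S100a16 for Smarcb1 loss, S100a1, S100a3, S100a13 and S100a16 for Arid1a loss, S100a10, S100a13 and S100a16 for CKI in Braf, all 3 calls for CKI in Braf Arid1a knockout, and S100a7a and Lce1g for CKI in Braf Smarcb1 knockout. A further 10 calls of low genes could not be tested in it, because too few counts were left. Without a filter the count was 2 for CKI in Braf Arid2 knockout. Over all genes the unfiltered fit called 652 of 29357 there, against 640 of 19016 with the filter. RLE size factors moved no count by over 1.5 times. They moved the median of all genes by -0.109 on the log2 scale in Braf Arid1a knockout against the libraries labelled Arid1a knockout.

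With the replicate number as a block the count was 14 for Braf Arid1a knockout against the libraries labelled Arid1a knockout, of which 13 were shared with the fit without it. Over all genes the block called 7256 in that comparison, against 7698 without it. In every comparison, this one included, libraries of different groups share only a number in the labels. The block gave 0 for CKI in Braf Arid1a knockout, 1 for CKI in Braf Smarcb1 knockout and 0 for the Arid2 difference in response. Over all genes it called 177, 339 and 1160 there, against 858, 732 and 1647 without it. With 1 library left out the count ran from 16 to 19 for Braf against wild type, 2 to 2 for the libraries labelled Arid1a knockout against wild type, and 10 to 15 for Braf Arid1a knockout against those libraries. It ran from 1 to 6, 0 to 2 and 8 to 16 for Arid1a, Arid2 and Smarcb1 loss against Braf. For CKI it ran from 2 to 8 in Braf, 0 to 1 in Braf Arid1a knockout, 0 to 1 in Braf Arid2 knockout and 0 to 3 in Braf Smarcb1 knockout. The Arid2 difference in response ran from 0 to 5, and the Arid1a and Smarcb1 differences from 0 to 0. Where an Arid2 group was left with 1 library, that library was assumed to vary like the other groups. Over all genes, calls with 1 library left out ran from 2359 to 3809 for Braf against wild type (3795 with all libraries). They ran from 1115 to 4854 (3538) for the libraries labelled Arid1a knockout against wild type. For Braf Arid1a knockout against those libraries they ran from 6090 to 7849 (7698). Against Braf these all-gene calls ran from 737 to 1637 (1818) with Arid1a loss and 3889 to 5140 (5433) with Smarcb1 loss. For CKI they ran from 726 to 2453 (2466) in Braf and 256 to 756 (858) in Braf Arid1a knockout. In Braf Smarcb1 knockout the calls with CKI ran from 233 to 923 (732). The low Sprr2 and Lce genes rest on few counts, which limits their precision.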

Other observations

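A list of 13 genes outside the rule for members held other genes of the complex and further S100 genes, S100b, S100g and S100z. Of these, 6 were tested. In Braf vehicle against wild type 2 of the 6 rose and 1 fell, and both S100g and S100b are among those 3. Crct1, which lies beside Lce3f, was at 6.06, 2.42 and 4.56 CPM in Braf vehicle, against 0.0698, 0 and 0 CPM in wild type (0.000615 as adjusted p, edgeR's quasi-likelihood test). S100g, a calcium-binding protein of the intestine that lies outside the complex, was at 37.6, 4.59 and 7.12 CPM in Braf vehicle, against 0.314, 0.147 and 0.128 CPM in wild-type thyroids (log2 fold change 6.36, adjusted p = 0.00124). S100b, a protein of glia and Schwann cells, fell, at 10.9, 17.6 and 18.99 CPM in Braf vehicle and 191, 130.3 and 112 CPM in wild-type thyroids (log2 fold change -3.19, adjusted p = 0.00357). It fell further with Arid1a loss (log2 fold change -4.48, adjusted p = 0.00146) and with Smarcb1 loss (log2 fold change -3.41, adjusted p = 0.00205) against Braf vehicle. Schwann cell markers summed to 16.1 to 97.95 CPM in Braf vehicle and 159 to 230.3 CPM in wild type, and 1 of 6 fell there, 4 of 6 with Arid1a loss and 3 of 6 with Smarcb1 loss. Their part in the S100b result was not tested.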
